A study of Mus musculus with 8 samples.

Results

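The genes described here are 10 genes of antigen presentation and T-cell costimulation, taken by name from the 23761 genes listed in an RNA-sequencing table of bone marrow-derived macrophages (BMDMs). They are the MHC class II chain genes H2-Aa, H2-Ab1 and H2-Eb1, the peptide-loading genes H2-DMa, H2-DMb1 and Cd74, the transactivator Ciita, and the costimulation genes Cd40, Cd80 and Cd86. All 10 are listed, and the rule takes them by name, although it was set with earlier results of these data known. MHC class II molecules carry peptides from endocytosed protein to the cell surface for CD4+ T cells. The invariant chain Cd74 occupies the groove of the new molecule, H2-DM exchanges its remnant for peptide, and the coactivator CIITA sets transcription of these genes together with the factors RFX, CREB and NF-Y at their promoters. CD80 and CD86 engage CD28 and CTLA-4 on the T cell, and CD40 receives CD40 ligand from it.

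The table compares BMDMs of control mice (genotype LysM Cre/Cre) with those of myeloid-specific KLF2 knockout mice, called K2KO, which carry the same Cre on both alleles together with floxed Klf2. All mice were 3 months of age, and there were 4 libraries of each genotype. Both groups carry Cre in place at the lysozyme M gene, so deletion is limited to cells that use that promoter. Marrow of C57BL/6J mice was grown until the sixth day in medium conditioned by L929 fibroblasts, and the labels mark the libraries as vehicle. Libraries carry the numbers of their columns (LysM0 to LysM3, K2KO0 to K2KO3), which give the genotype and not the mouse. The sample titles count from 1 to 4, so a library named LysM1 here need not be the sample of that title. Values are FPKM, fragment counts scaled to transcript length and to the size of the library, and no read counts accompany them. Low-value steps put the libraries at 0.892 to 1.42 times the depth of LysM0, with no separation of the genotypes (exact two-sided permutation test, n = 4 each, p = 0.543).

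Klf2, the targeted gene, was at 44.1, 52.9, 64.7 and 72.8 FPKM in LysM0 to LysM3 and at 45.5, 41.6, 59.2 and 59.3 FPKM in K2KO0 to K2KO3. The ranges overlapped, and the log2 fold change was -0.18 (SE 0.17, limma adjusted p = 0.460). Gene-level FPKM hide which exons were read. Because Klf2 was not clearly lower, the second group is called the K2KO-labelled libraries. All 8 macrophage markers of the list passed the filter, with levels that differed widely. Lyz2 was at 11.5 to 22.5 FPKM and Mertk at 13.0 to 19.8 FPKM, the lowest of the 8. Cd68 was at 1779 FPKM on average in the K2KO-labelled libraries and 1834 FPKM in LysM, Csf1r at 526 and 524 FPKM, and Adgre1, which encodes F4/80, at 440 and 433 FPKM. Cd14 was lower in every K2KO-labelled library than in any LysM library (log2 fold change -0.32, limma adjusted p = 0.0630) and was not called.

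Promoter sequences of RefSeq (GRCm38.p6, 250 bases before to 50 after the start) matched 5 of the 10 genes by symbol, namely H2-Aa, H2-Eb1, H2-DMa, H2-DMb1 and Cd80. The H2-Aa, H2-Eb1 and H2-DMb1 stretches from 110 to 30 bases before the start are shown because class II promoters hold a conserved X and Y box there. Capitals mark matches to ACNGATG, letters of the X1 box shared by the H2-Eb1 and H2-DMb1 stretches, and to the Y box GATTGG. An X box with other letters is not marked. Both strands were read, and matches of the 2 motifs did not overlap in these genes. These letters were chosen after the sequences had been seen.
H2-Aa, chr17:34287853-34287933, minus strand: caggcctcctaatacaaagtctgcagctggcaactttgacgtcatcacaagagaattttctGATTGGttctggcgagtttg
H2-Eb1, chr17:34305757-34305837, plus strand: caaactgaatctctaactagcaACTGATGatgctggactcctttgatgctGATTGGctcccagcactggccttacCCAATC
H2-DMb1, chr17:34153081-34153161, plus strand: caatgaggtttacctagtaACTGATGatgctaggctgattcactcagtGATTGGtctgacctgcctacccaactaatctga

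The H2-Eb1 and H2-DMb1 promoters share the order and spacing of the motifs, with 21 and 22 bases between ACNGATG and the Y box. In H2-Eb1 the 2 motifs begin 88 and 60 bases before the start, and in H2-DMb1 91 and 62 bases before it. A second Y box match, on the opposite strand, begins 35 bases before the H2-Eb1 start. H2-Aa held the Y box at 49 bases and a match to ACNGATG far from it, 232 bases before the start, and Cd80 held neither motif. The RefSeq start sites of H2-DMa lie 12.35 and 9.66 kb upstream of the start listed in the table, so its windows were not read as its promoter. Among 32851 promoters of the same length, 9.85% held ACNGATG, 16.1% the Y box and 1.52% both. Of the related class II genes outside the 10, H2-Eb2 and H2-DMb2 held both motifs, again 21 and 22 bases apart, and H2-Ob held the Y box alone. H2-Oa held both, 86 bases apart, in a window whose start site lies 8.54 kb from the listed start.

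The class II genes span a wide range of levels on this per-length scale. Cd74 was highest in every library, with 1175, 1933, 2373 and 2255 FPKM in LysM0 to LysM3 and 1232, 1087, 1406 and 1526 FPKM in the K2KO-labelled libraries. The chains H2-Aa, H2-Ab1 and H2-Eb1 followed in that order of mean level, then H2-DMa and H2-DMb1 at similar levels. Cd40, Cd86 and Cd80 had means of 2.07 to 4.71 FPKM in LysM, and Ciita had the lowest, below 1 FPKM in all 8 libraries. The LysM levels of H2-Aa and H2-Ab1 (597 ± 219 and 514 ± 185 FPKM, SD, n = 4) overlapped between libraries, but within each of the 8 libraries H2-Aa was higher, by 1.08 to 1.24 times. H2-DMa and H2-DMb1 (44.8 ± 12.4 and 42.4 ± 7.85 FPKM in LysM, SD, n = 4) had no fixed order within libraries, H2-DMb1 being at 0.815 to 1.17 times H2-DMa.

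**Figure D1:**
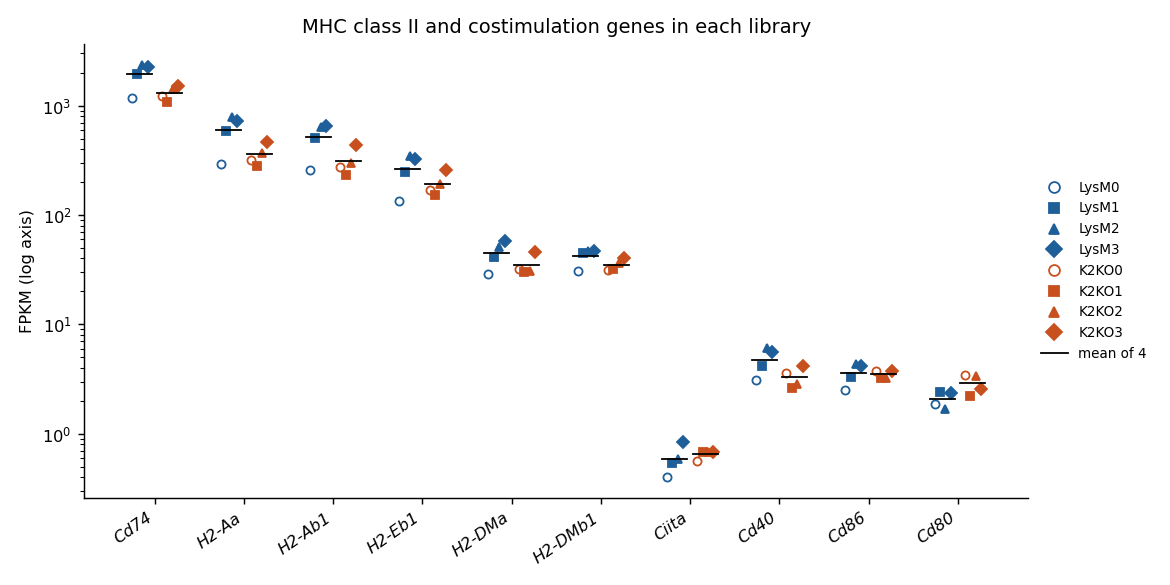
FPKM on a log axis of the 10 genes in each of the 8 libraries, LysM in blue and K2KO in orange, with a horizontal line at the mean of 4. Cd74 lies at 1087 FPKM or more in every library, Ciita below 1, and the open circle of LysM0 sits with or below the K2KO points for the 6 class II genes.

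Of the 10 genes, 9 passed the filter of a mean of 1 FPKM and Ciita did not. None of the 9 was differentially expressed at a limma adjusted p under 0.05 with an absolute log2 fold change over 0.26, against 18.4% of the 10920 genes tested (9.84% higher and 8.61% lower in the K2KO-labelled libraries). At an unadjusted p under 0.05 there were 3 of the 9 (H2-Aa, Cd74 and Cd80) against 37.8% of all tested genes, and an ordinary least squares test gave 0. The median log2 fold change of the 9 was -0.39, where that of all tested genes was 0.01. In none of the 9 did the ranges of the genotypes separate, whereas all K2KO-labelled libraries lay below all LysM libraries for 10.2% of tested genes and above them for 12.9%.

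The chain genes showed one pattern across the libraries. H2-Aa, the alpha chain of I-A, was at 294, 583, 786 and 724 FPKM in LysM0 to LysM3 and at 316, 283, 370 and 468 FPKM in K2KO0 to K2KO3. LysM1, LysM2 and LysM3 lay above every K2KO-labelled library, while LysM0 lay among them. The log2 fold change was -0.66 (SE 0.29, 95% interval -1.32 to -0.0049, limma adjusted p = 0.130). H2-Ab1, the beta chain that pairs with it, was at 256, 503, 639 and 658 FPKM against 276, 231, 299 and 434 FPKM. Its log2 fold change was -0.68 (SE 0.30, 95% interval -1.36 to 0.0037, limma adjusted p = 0.134). Again LysM0 alone fell into the range of the other genotype.

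H2-Eb1, the beta chain of I-E, was at 133, 248, 347 and 325 FPKM in LysM0 to LysM3 and at 168, 153, 191 and 255 FPKM in the K2KO-labelled libraries. LysM0 was the lowest of all 8, and K2KO3 was higher than LysM1. The log2 fold change was -0.39 (SE 0.29, 95% interval -1.04 to 0.26, limma adjusted p = 0.342). The alpha chain of I-E is not made in C57BL/6 mice, and its locus H2-Ea-ps was listed at 0 in all 8 libraries.

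Among the genes of peptide loading, Cd74 had a log2 fold change of -0.52 (SE 0.21, 95% interval -1.001 to -0.039, limma adjusted p = 0.109). Its LysM0 value of 1175 FPKM lay within the range of the K2KO-labelled libraries, and the other LysM libraries lay above that range. H2-DMa, the alpha chain of H2-DM, was at 29.0, 41.5, 51.0 and 57.6 FPKM in LysM0 to LysM3 and at 32.1, 30.3, 31.0 and 45.9 FPKM in K2KO0 to K2KO3 (log2 fold change -0.34, SE 0.21, limma adjusted p = 0.266). K2KO3 stood apart from the other K2KO-labelled libraries and above LysM1. H2-DMb1, one of the beta chains, was at 30.8, 44.7, 47.3 and 47.0 FPKM against 31.6, 32.3, 36.2 and 40.6 FPKM (log2 fold change -0.26, SE 0.14, limma adjusted p = 0.220). Here LysM0 was below every K2KO-labelled library and the other LysM libraries above all of them. H2-DMb1 transcripts match H2-DMb2 at 95.7% over 1081 bases, and H2-DMa transcripts match 325 bases of Brd2 at 99.1%, so reads may have been shared and these values are uncertain. H2-DMb2 was at 0.630 to 2.09 FPKM and Brd2 at 55.2 to 63.1 FPKM.

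Summed over the 6 class II genes, expression was 1918, 3354, 4243 and 4067 FPKM in LysM0 to LysM3 and 2056, 1816, 2333 and 2770 FPKM in the K2KO-labelled libraries. The means were 3395 ± 1058 and 2244 ± 410 FPKM (SD, n = 4 each), a difference of -1152 FPKM (exact two-sided permutation test, p = 0.114). With 4 against 4 libraries this test cannot give a p below 0.0286. The sum made up 0.386 to 0.785% of all FPKM in the LysM libraries and 0.394 to 0.552% in the K2KO-labelled ones. In a bulk culture, fewer class II-expressing cells and less class II RNA per cell cannot be told apart.

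**Figure D2:**
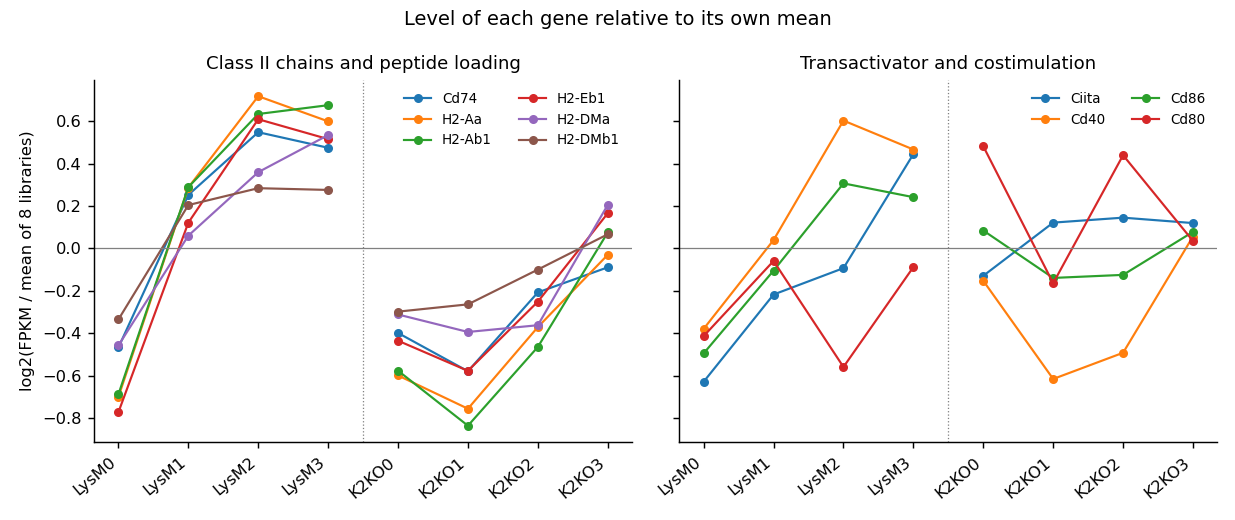
Log2 ratio of each gene's FPKM to its own mean over the 8 libraries, with class II genes on the left and Ciita and the costimulation genes on the right. Lines only join the points of a gene within a genotype, since libraries have no order. The 6 class II genes move together, lowest in LysM0 among the LysM libraries, and Cd80 and Ciita follow other patterns.

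The class II genes varied together over the libraries. Across the 8 libraries, which share their normalization, the Pearson correlation of log2 FPKM ranged from 0.911 to 0.995 over the 15 pairs of the 6 genes, and Spearman's rho from 0.881 to 1. After centring each genotype on its mean the range was 0.898 to 0.997, so the genes varied together within the genotypes too. This was not particular to class II genes. Within genotypes, the mean of the class II chains and Cd74 correlated at 0.958 with Lgmn, 0.921 with Psmb8 and -0.933 with Mertk. Other listed genes did not follow it, such as Csf1r (-0.0911) and Traf1 (0.104). The spread of the class II genes within genotypes was large for this table. The standard deviation within genotypes on the log2 scale was 0.51 for H2-Aa, at the 96.2nd percentile of tested genes, and the median over the 9 genes was 0.365 against 0.132 for all tested genes.

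Ciita, whose product is the master coactivator of the class II promoters, was at 0.402, 0.534, 0.582 and 0.845 FPKM in LysM0 to LysM3 and at 0.568, 0.675, 0.686 and 0.674 FPKM in the K2KO-labelled libraries. The K2KO values all lay inside the LysM range (exact two-sided permutation test of the means, n = 4 each, p = 0.657). With the filter at a mean of 0.1 FPKM its log2 fold change was 0.16 (limma adjusted p = 0.630). The means were 0.590 in LysM and 0.651 FPKM in the K2KO-labelled libraries, the opposite order to that of the class II genes. The correlation of Ciita with H2-Aa was 0.37 over 8 libraries and 0.73 within genotypes. Dexi lies on the opposite strand at this locus and was at 11.8 to 17.4 FPKM. The library kit named in the methods marks strand, and whether the counting used it is not given in the sources used here.

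The 3 costimulation genes gave estimates of different sign and size, and differences among them were not tested. Cd40 was at 3.09, 4.13, 6.10 and 5.55 FPKM in LysM0 to LysM3 and at 3.61, 2.62, 2.86 and 4.17 FPKM in K2KO0 to K2KO3, with LysM0 lowest in its group and K2KO3 highest in its own, as for the class II genes (log2 fold change -0.47, SE 0.22, limma adjusted p = 0.148). Its correlation with H2-Aa was 0.93 over 8 libraries and 0.89 within genotypes. Cd80 had the reverse sign, at 1.87, 2.39, 1.69 and 2.34 FPKM in LysM and 3.47, 2.22, 3.37 and 2.55 FPKM in the K2KO-labelled libraries. K2KO1 lay below LysM1 and LysM3, and the other K2KO-labelled libraries lay above all LysM libraries (log2 fold change 0.46, SE 0.17, 95% interval 0.07 to 0.84, limma adjusted p = 0.0833). Cd80 did not follow H2-Aa (r = -0.36 over 8 libraries, 0.11 within genotypes). Cd86 was at 2.50, 3.28, 4.36 and 4.17 FPKM against 3.74, 3.20, 3.24 and 3.73 FPKM, with every K2KO value inside the LysM range and a log2 fold change of -0.01 (95% interval -0.38 to 0.35, limma adjusted p = 0.961). Its correlation with H2-Aa was 0.73 over 8 libraries and 0.89 within genotypes, and with Cd40 0.78 and 0.95.

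A single library decided whether these genes passed the test. Each of the 8 libraries was left out in turn, and without LysM0 the limma fit called 6 of the 9 genes, all lower in the K2KO-labelled libraries, where 21.4% of all tested genes were called, 10.6% as lower. H2-Aa changed by -0.97 (SE 0.18, limma adjusted p = 0.0132), H2-Ab1 by -0.98 (adjusted p = 0.0178), H2-Eb1 by -0.69 (adjusted p = 0.0349) and Cd74 by -0.74 (adjusted p = 0.0129) on the log2 scale. H2-DMb1 changed by -0.40 (limma adjusted p = 0.0231) and Cd40 by -0.65 (limma adjusted p = 0.0414). H2-DMa (-0.53, adjusted p = 0.0532), Cd86 (-0.17, adjusted p = 0.314) and Cd80 (0.42, adjusted p = 0.141) did not pass. For each of the 6 called genes LysM0 lay within or below the range of the K2KO-labelled libraries, so leaving it out favoured these calls. The 6 genes also varied together over the libraries and are not 6 separate results. Leaving out any of the other 7 libraries gave 0 called genes of the 9, with between 3.09% (without LysM3) and 26.0% (without K2KO3) of all tested genes called. The difference in the class II sum without LysM0 was -1644 FPKM (exact two-sided permutation test, 3 against 4 libraries, p = 0.0286, the smallest p possible). LysM0 was the only LysM library whose sum lay in the range of the K2KO-labelled libraries, so leaving it out fixed this p in advance. With any other library left out, the same permutation test gave p from 0.114 to 0.229.

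**Figure D3:**
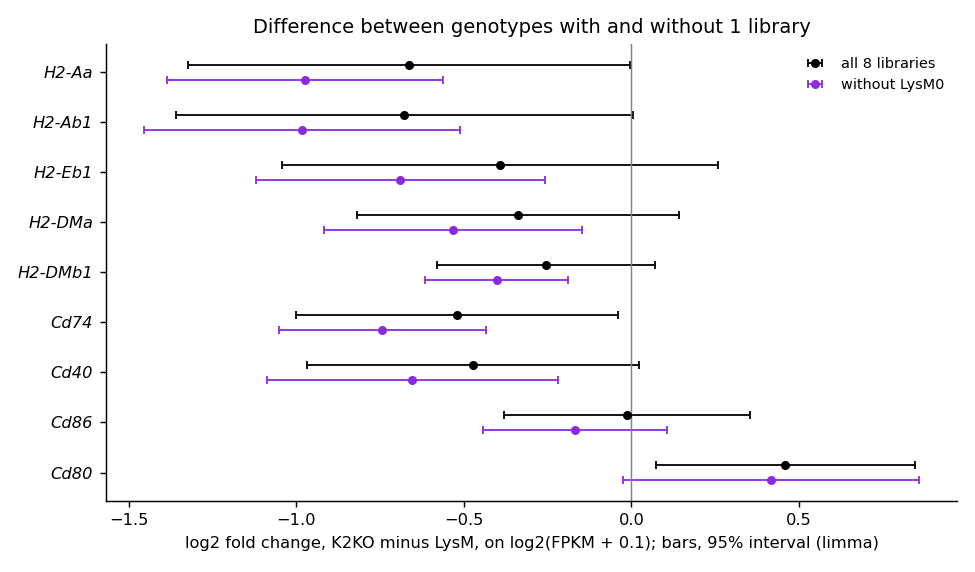
Log2 fold change (K2KO minus LysM, on log2(FPKM + 0.1)) of the 9 tested genes with 95% limma intervals, over all 8 libraries in black and without LysM0 in purple. Without LysM0 the estimates for the 6 class II genes and Cd40 move away from 0 and their intervals narrow, while the estimate for Cd80 is above 0 in both and its interval reaches below 0 without LysM0.

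No label marks LysM0, and its depth is the unit of the relative scale, inside the range of the other libraries. Its mean correlation with the other LysM libraries was 0.958, between the 0.948 of LysM3 and the 0.963 of LysM1. Its FPKM summed over all listed genes was 497253, below the 537664 to 551608 of the other LysM libraries and inside the 448235 to 501965 of the K2KO-labelled libraries, as its class II sum was. As a share of this total, the class II sum was 0.386% in LysM0, 0.624% to 0.785% in the other LysM libraries and 0.394% to 0.552% in the K2KO-labelled libraries. LysM0 was the lowest library on this scale, while K2KO1 was lowest for the class II sum itself (1816 FPKM against 1918 FPKM in LysM0). The fit over all 8 libraries therefore remains the main result. The fit without LysM0 shows only how far that result depends on a single library.

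Of 5 other genes of the class II group (H2-DMb2, H2-Oa, H2-Ob, H2-Eb2 and H2-Ea-ps), 2 passed the filter. Neither was called, against 18.4% of all tested genes, and 2 genes are too few to set against that share. H2-Oa, a chain of the H2-DM inhibitor H2-O, was at 0.400, 0.545, 0.585 and 1.56 FPKM in LysM and 1.25, 1.59, 0.842 and 2.50 FPKM in the K2KO-labelled libraries (log2 fold change 0.99, SE 0.42, limma adjusted p = 0.118). It passed the filter only through the K2KO-labelled libraries, whose mean was 1.55 FPKM where that of LysM was 0.772 FPKM, so its sign and fold are not independent of the filter. H2-DMb2 had a log2 fold change of 0.03 (limma adjusted p = 0.955).

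None of the 10 class II promoter factors was called, against 18.4% of all tested genes, and their median log2 fold change was 0.01. Spi1, which encodes the myeloid factor PU.1, was the most abundant at 243 ± 9.71 FPKM in LysM and 211 ± 12.9 FPKM in the K2KO-labelled libraries (SD, n = 4 each, log2 fold change -0.20, limma adjusted p = 0.053). The RFX subunits Rfx5, Rfxap and Rfxank had log2 fold changes of 0.05, -0.20 and -0.21. The coactivator gene Ep300 was higher in every K2KO-labelled library than in any LysM library (0.22, limma adjusted p = 0.0690) without passing the test, and both it and Creb1 were called in 1 of 8 leave-one-out fits. Rfxap was called without LysM0, at -0.29 (limma adjusted p = 0.0320).

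Interferon-gamma is the main inducer of Ciita in macrophages, and 1 of the 10 tested genes of its axis was called, against 18.4% of all tested genes. Jak2, the kinase bound to the interferon-gamma receptor, was at 3.12, 3.40, 3.33 and 3.72 FPKM in LysM0 to LysM3 and 4.77, 4.60, 4.66 and 3.81 FPKM in the K2KO-labelled libraries, with no overlap (log2 fold change 0.38, SE 0.09, limma adjusted p = 0.0241). It was called in 2 of the 8 fits with one library left out, and not with quantile normalization (0.28, adjusted p = 0.0516) or after correcting for GC and transcript length (0.22, adjusted p = 0.0989). The receptor genes Ifngr1 and Ifngr2 had log2 fold changes of -0.03 and -0.06, and the target Irf1 0.11, none of them called. Jak1 was higher in every K2KO-labelled library than in any LysM library (0.22, limma adjusted p = 0.0593) without passing the test. Gbp2 and Cxcl10 had log2 fold changes of 0.51 and 0.41 and Socs1 of -0.41, with overlapping ranges and no call. Cxcl9, a target with little expression at rest, was below the filter and reached 1.52 FPKM in K2KO3 alone.

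Among 8 genes of class II processing and turnover, 1 was higher and 2 were lower, against 9.84% and 8.61% of all tested genes. Ifi30, the thiol reductase GILT of antigen-processing compartments, was at 230, 227, 239 and 237 FPKM in LysM and 160, 189, 175 and 176 FPKM in the K2KO-labelled libraries, which did not overlap. Its log2 fold change was -0.42 (SE 0.07, limma adjusted p = 0.00902), and it was called in 8 of 8 fits with one library left out. Ifi30 lies on chromosome 8 (70762774 to 70766663), and any part of DNA linked to the floxed Klf2 allele in its difference was not tested. Lgmn, an asparaginyl endopeptidase that cleaves antigen and invariant chain, fell from 1301 ± 98.6 to 1055 ± 63.9 FPKM (SD, n = 4 each, log2 fold change -0.30, limma adjusted p = 0.0319). Ctsl, a lysosomal cysteine protease, rose from 1219 ± 73.1 to 1507 ± 151 FPKM (log2 fold change 0.30, limma adjusted p = 0.0399). With the GC and length correction Ifi30 was at -0.27 (limma adjusted p = 0.0497), close to both limits. The calls of Lgmn and Ctsl held in 2 and 1 of the 8 fits with one library left out, and neither held with the correction for GC content and length. There Lgmn fell short of the fold limit alone (-0.23, limma adjusted p = 0.0373) and Ctsl of both limits (0.12, limma adjusted p = 0.347). With quantile normalization Ctsl was called at 0.58 (limma adjusted p = 0.00940), while Lgmn changed by -0.05 (limma adjusted p = 0.490) and Ifi30 by -0.25, short of the fold limit (limma adjusted p = 0.0343). Ctss, a protease of invariant chain breakdown, was the most abundant of the list and had a log2 fold change of -0.09 (limma adjusted p = 0.479). The ubiquitin ligase genes March1 and March8, whose products remove class II and CD86 from the surface, had log2 fold changes of 0.11 and 0.23 (limma adjusted p = 0.660 and 0.0706).

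Of 13 listed genes for other costimulatory and checkpoint ligands, 8 were tested and 1 was called, against 18.4% of all tested genes. Cd274, which encodes the inhibitory ligand PD-L1, was at 14.2, 13.6, 12.8 and 16.1 FPKM in LysM0 to LysM3 and at 19.1, 21.6, 23.6 and 22.5 FPKM in the K2KO-labelled libraries. Every K2KO-labelled library lay above every LysM library. The log2 fold change was 0.61 (SE 0.09, limma adjusted p = 0.00698), the call held in 8 of 8 fits with one library left out, and it held with quantile normalization (0.62, adjusted p = 0.0050) and with the GC and length correction (0.50, adjusted p = 0.0190). Vsir, Cd48 and Cd83 were abundant, with log2 fold changes of -0.01, -0.15 and 0.12, and none was called.

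Downstream of CD40, 1 of 10 genes was higher and 1 was lower, against 9.84% and 8.61% of all genes in the test. Traf1, an adaptor of the TNF receptor family, was at 6.63, 8.08, 7.26 and 7.36 FPKM in LysM and at 5.52, 4.89, 5.43 and 4.33 FPKM in the K2KO-labelled libraries (log2 fold change -0.53, SE 0.09, limma adjusted p = 0.0115). The groups did not overlap, and Traf1 was called in 7 of 8 fits with one library left out. Traf6, a ubiquitin ligase that CD40 engages, had means of 4.12 and 5.03 FPKM (log2 fold change 0.28, SE 0.07, limma adjusted p = 0.0296) and was called in 2 of those fits. It was not called with quantile normalization (0.18, limma adjusted p = 0.0891) or the GC and length correction (0.12, limma adjusted p = 0.185). Nfkb2, a precursor in the noncanonical arm of NF-κB, had a limma adjusted p of 0.0325 but a log2 fold change of -0.26 that fell short of the fold limit.

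**Figure D4:**
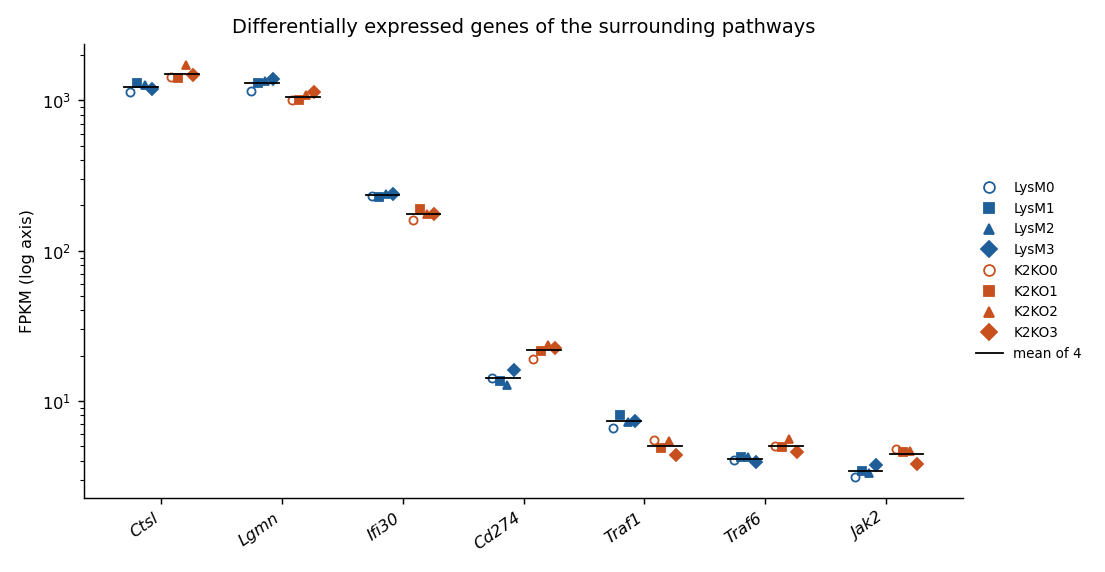
FPKM on a log axis of the 7 differentially expressed genes of the lists around the class II and costimulation genes, LysM in blue and K2KO in orange, with a line at the mean of 4. The genotypes do not overlap for any of the 7 genes, which were picked because they were called in these same libraries, so this adds no support. Among all tested genes, 10.2% lay all lower and 12.9% all higher in the K2KO-labelled libraries. Cd274 is higher and Ifi30 lower there.

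The class I presentation genes gave 0 calls of 10 in the limma fit, against 18.4% of all tested genes (1 at an unadjusted p under 0.05, and a median log2 fold change of 0.04). H2-K1 and H2-D1, the class I heavy chains, had log2 fold changes of 0.05 and 0.03. With quantile normalization H2-K1, H2-D1 and B2m were called higher, at 0.40, 0.28 and 0.33 (limma adjusted p = 0.0247, 0.0174 and 0.00661), while the 9 class II and costimulation genes gave no call there (14.0% of all tested genes called) and none after the GC and length correction (10.1%). LysM0 was the lowest library for H2-K1 as well, at 1975 FPKM against 2053 to 3179 FPKM in the others.

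The class II genes of chromosome 17 lie with genes of other function between H2-K1 and Btnl2, 373 kb that hold 21 listed protein-coding genes. H2-DMa (34135182 to 34139101, mm10) and H2-DMb1 (34153072 to 34160230) lie upstream of Tap1, Tap2, Psmb8 and Psmb9, and H2-Ab1 (34263209 to 34269418), H2-Aa (34282744 to 34287827, minus strand) and H2-Eb1 (34305877 to 34316199) lie beyond them. Of 17 tested genes in the region, 1 was called, against 18.4% of all tested genes. It was H2-Ke6, a dehydrogenase gene that encodes no MHC chain (log2 fold change -0.59, limma adjusted p = 0.00954). The neighbours Tap1, Tap2, Psmb8 and Psmb9 had log2 fold changes of 0.15, -0.19, 0.12 and -0.14, none of them called. Gm20513, an antisense gene over H2-Eb1, was at 0 to 0.349 FPKM. Away from the region, Cd74 lies on chromosome 18, Ciita (10488178 to 10543054), Cd86 (36603869 to 36666077, minus strand) and Cd80 (38458933 to 38486933) on chromosome 16, and Cd40 (165055627 to 165072948) on chromosome 2.

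**Figure D5:**
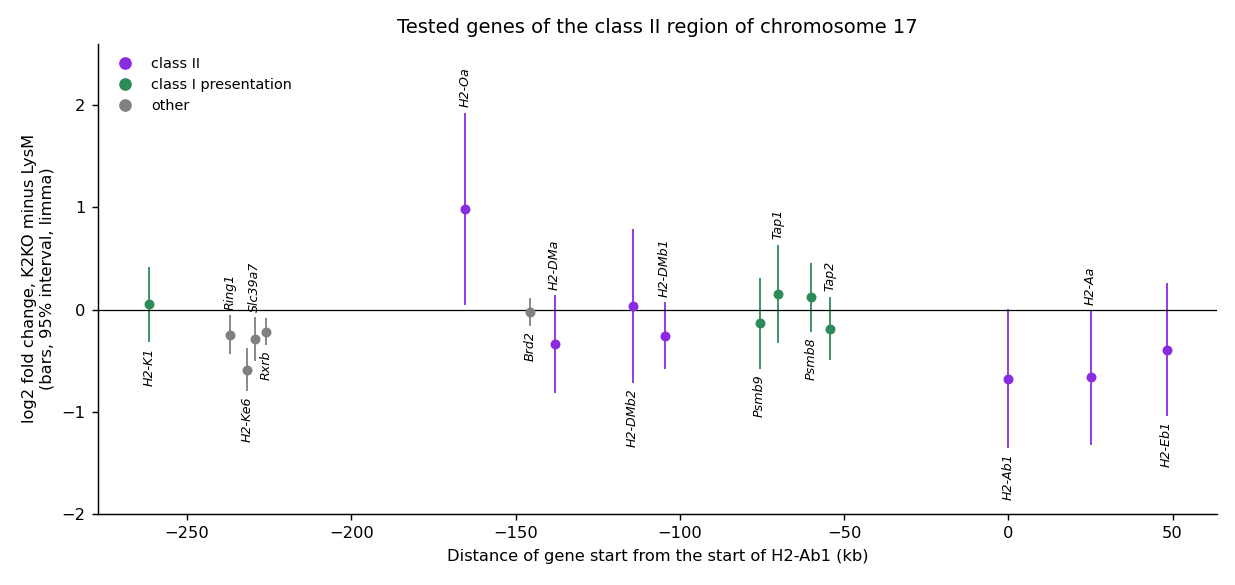
Log2 fold change (K2KO minus LysM) with 95% limma intervals of the 17 tested genes from H2-K1 to Btnl2, against the distance in kb of the gene start from that of H2-Ab1. Class II genes are purple, class I presentation genes green and others grey. H2-Ke6 is the gene with a called difference, and the widest intervals belong to class II genes.

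Other cells that carry class II were looked for with marker lists. Dendritic cell markers summed to 10.8, 14.1, 17.8 and 16.7 FPKM in LysM0 to LysM3 and to 11.7, 14.6, 11.7 and 13.7 FPKM in the K2KO-labelled libraries. Of the 10, 3 were tested and none was called, against 18.4% of all tested genes, and the defining genes Flt3, Zbtb46, Xcr1 and Clec9a were each below 1 FPKM in every library. The tested genes had log2 fold changes of 0.77 for Ccr7, -0.26 for Itgax and -0.58 for Batf3 (limma adjusted p = 0.205, 0.351 and 0.130), and Ccr7 passed the filter only through the K2KO-labelled libraries. Below the filter, Siglech was at 0.339 to 0.712 FPKM in the K2KO-labelled libraries and 0.0658 to 0.295 FPKM in LysM, without overlap. It was named after its values were seen and was not tested. Among tested genes 12.9% lay all higher in the K2KO-labelled libraries, and that share was not computed below the filter. Flt3, Clec9a, Dpp4 and Cd209a had higher means in the K2KO-labelled libraries. Zbtb46 had a lower mean there (0.0548 against 0.0816 FPKM in LysM), and the Xcr1 means were alike (0.0260 and 0.0261 FPKM). The most abundant was Batf3 at 4.04, 5.87, 10.4 and 9.35 FPKM in LysM and 4.80, 4.26, 4.75 and 4.62 FPKM in the K2KO-labelled libraries, which was lowest in LysM0 and was called lower without it (-0.83, limma adjusted p = 0.0187). Over 8 libraries the correlation with the mean of the class II chains and Cd74 was 0.91 for Batf3, 0.26 for Ccr7 and -0.22 for Itgax. Within genotypes these were 0.86, 0.81 and -0.61. B cell markers summed to 1.53, 2.91, 3.60 and 5.10 FPKM in LysM and 3.90, 5.73, 3.62 and 5.05 FPKM in the K2KO-labelled libraries, with Cd79b the most abundant, 1 of 7 tested and none called, and Cd79a listed at 0 in LysM0. T cell and fibroblast markers summed to at most 1.12 and 3.34 FPKM, and no gene of either list passed the filter. The part of other cells in the class II result was not tested.

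Neutrophil markers summed to 186, 267, 231 and 315 FPKM in LysM and 175, 292, 227 and 306 FPKM in the K2KO-labelled libraries, with S100a9 the most abundant and the defining gene Ly6g at 0 to 0.357 FPKM. Of the 7 tested, 1 was called, Camp, which was lower (-1.14, limma adjusted p = 0.0178), also in 5 of 8 fits with one library left out. Of the 8 macrophage markers, 1 was called in each direction. Among all tested genes 9.84% were called higher and 8.61% lower, which sets the background for both lists. Mertk was called higher (0.36, limma adjusted p = 0.0285) and Lyz2, the gene into which Cre is inserted, lower (-0.49, limma adjusted p = 0.0260). They were called in 2 and 4 of the 8 leave-one-out fits, and Mertk was not called after the GC and length correction (0.28, limma adjusted p = 0.0752). Over the 8 libraries Mertk ran opposite to the mean of the class II chains and Cd74 (r = -0.90). Their part in the class II result was not tested.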

How the data were processed

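BMDM total RNA from LysM and K2KO mice was sequenced by the authors, who per the methods aligned reads to mm10 with TopHat2 and computed FPKM with Cufflinks. The submitters' processing notes name STAR, Cufflinks and Cuffdiff instead, and the labels and the methods name different RNA isolation kits. The deposited FPKM table has one column per library, no pooling, and no counts, so depth is unknown beyond its relative value and no counting interval could be given. The methods give 4 mice per genotype as biological replicates, and no column is tied to a single mouse. All 8 libraries list Gapdh at 0 to 0.4999 FPKM, so values near 0 are not taken to mean no transcript.

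The 10920 genes whose mean reached 1 FPKM were compared on log2(FPKM + 0.1), which understates changes of low genes, with limma 3.58.1 (lmFit, eBayes with intensity trend) in R 4.3.3. The Benjamini-Hochberg adjustment ran over all tested genes, no covariate was used, and a call needed both an adjusted p under 0.05 and a log2 fold change beyond 0.26 either way. Exact permutation tests of single values were two-sided (SciPy 1.17.1). Printed gene positions are those of the table. The span of the chromosome 17 region, the distances plotted for it, transcript length, GC content and biotype come from GENCODE M21 (23645 of 23761 genes matched). Its gene bounds differ from the table's for some genes. Transcripts were compared with BLAST 2.17.0 (at least 95% identity over at least 200 bases).

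The 10 genes, the lists (122 genes, 121 listed) and the tests were chosen with earlier results of these data known. Named genes are the 10, Klf2, the called genes and up to 4 others with the largest mean FPKM of each list, the 5 genes most like the class II chains and Cd74, and genes beside class II genes on the chromosome. The March genes appear as numbers in the name column (2 genes) and were matched by identifier. H2-Oa, Cxcl9, Jak1, Gbp2, Cxcl10, Socs1, Siglech, Dpp4, Cd209a, marker genes below the filter, the RFX subunits, the genes overlapping the 10 and the promoter motifs were named after their values were seen. Alternatives were other pseudocounts (1 or 0.01), other filters (0.1 or none), quantile and upper-quartile scaling, limma without trend, ordinary least squares, a fold limit of 1, a block on the library number, a local regression on GC content and transcript length (span 0.3), and each library left out. The fit was tested on simulated data before use. One gene of the interferon-gamma list is not reported here.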

Additional observations from a re-analysis of the deposited data

Results flagged for a closer look

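Of 158 groups of 4 libraries examined, which are 78 named genes and the class II sum in both genotypes, 8 held a library whose gap to its nearest neighbour was above Dixon's 95% critical value. Chance flags about 1 in 20 groups, or 7.9 of these. LysM0 accounted for 4 of the 8, with the lowest LysM value of H2-DMb1 (30.8 FPKM), H2-DMb2 (0.630 FPKM), Ctsf (10.6 FPKM) and Ccr7 (0.302 FPKM). LysM3 was the highest LysM library for Csf1r (547 FPKM) and H2-Oa (1.56 FPKM). In the libraries labelled K2KO, K2KO3 stood above the others for H2-DMa (45.9 FPKM) and K2KO0 below them for Ciita (0.568 FPKM). The low LysM0 values of H2-Aa, H2-Ab1, H2-Eb1 and Cd74 did not pass this criterion, so the library that decides their calls was not an outlier by it for those genes.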

How the results depend on the processing

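Of 171 repeats of the fold changes of the 9 tested genes under other settings, 160 kept their direction and their side of the threshold, 6 passed it (all without LysM0) and 5 turned direction. The 5 were all of Cd86, whose log2 fold change was 0.030 with upper-quartile scaling and 0.090, 0.069, 0.024 and 0.019 without LysM2, LysM3, K2KO1 and K2KO2, and -0.17 at its lowest without LysM0. Cd86, at -0.01 in the main fit, also moved to -0.12 with quantile scaling and with the GC and length correction. For the genes other than Cd86, changes of over 1.5 times came with quantile scaling (Cd74 -0.24, H2-Eb1 -0.23), without LysM0 (H2-DMa, H2-DMb1 and H2-Eb1, given above), without LysM2 (H2-Eb1 -0.23), without LysM3 (H2-DMa -0.20, H2-Eb1 -0.26) and with the GC and length correction (Cd74 -0.35, H2-DMa -0.22, H2-DMb1 -0.12). The number of called genes was 1090 with no filter, 746 with ordinary least squares, 110 at a fold limit of 1, 1098 with the GC and length correction, and 337 to 2837 with one library left out (736, 1030, 337, 706, 726 and 496 without LysM1, LysM2, LysM3, K2KO0, K2KO1 and K2KO2). The number of called class II and costimulation genes was 0 to 6 with one library left out, 6 of them without LysM0, and 0 under every other setting. The difference in the class II sum was -1644 to -869 FPKM with one library left out, the first without LysM0, and -1059 and -654 FPKM with upper-quartile and quantile scaling. The share of called genes that were higher was 64.1% with upper-quartile scaling and 44.2% with the GC and length correction, against 53.3% in the fit as reported and 45.5 to 59.1% under the other settings.

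Libraries with the same number did not deviate together over all tested genes (correlations of -0.07, 0.02, 0.07 and -0.06), so the numbers were not taken as a pairing. A fit with the number as a block called 2057 genes and none of the 9, and with the GC and length correction 868 and none. With the block alone the limma adjusted p was 0.0653 for H2-Aa, 0.0696 for H2-Ab1 and 0.0626 for Cd74, against 0.130, 0.134 and 0.109 without it. That of Cd80 went the other way, from 0.0833 to 0.154. Among the list genes the block added H2-Oa to the calls (adjusted p = 0.0400), which had passed the filter only through the K2KO-labelled libraries, and lost Jak2 (0.38, adjusted p = 0.0531). FPKM without counts leave the precision of low genes such as Ciita, Cd80 and H2-Oa unknown.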

Other observations

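The 5 tested genes outside the lists whose values over the 8 libraries were most like the mean of H2-Aa, H2-Ab1, H2-Eb1 and Cd74 were Gm6274, Nsmce4a, Dynlt1f, Keap1 and R3hcc1l, with Pearson correlations of 0.992, 0.983, 0.980, 0.973 and 0.969. These were picked as the highest of all tested genes. Gm6274 ran from 57.1 to 74.9 FPKM, Dynlt1f from 6.35 to 11.1 FPKM and Keap1 from 19.5 to 24.9 FPKM, and none of the 5 was called. Within the lists Batf3 (0.909), Tap2 (0.908) and Lgmn (0.886) were most like the class II genes.

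Of 6 ratios between these genes, chosen after the values were seen, 1 separated the genotypes. The ratio of H2-Eb1 to H2-Ab1 FPKM was 0.521, 0.492, 0.543 and 0.494 in LysM0 to LysM3 and 0.609, 0.661, 0.640 and 0.588 in the libraries labelled K2KO. LysM0 lay with the other LysM libraries in this ratio, although its H2-Eb1 and H2-Ab1 levels did not. The exact two-sided permutation p (n = 4 each) was 0.0286, the smallest the design allows, and 0.171 adjusted over the 6 ratios, a value that a single separating ratio among 6 takes here whatever its size. After the GC and length correction the ratio ran from 0.515 to 0.547 and from 0.583 to 0.618. H2-Aa to H2-Ab1 was close to constant, at 1.08 to 1.24 in all 8 libraries (exact permutation p = 0.886, adjusted p = 0.886). The summed class II to summed class I ratio was 0.166 to 0.311 in LysM and 0.139 to 0.175 in the libraries labelled K2KO (exact permutation p = 0.0571, adjusted p = 0.171), and Cd80 to Cd86 was 0.387 to 0.746 and 0.684 to 1.04 (exact permutation p = 0.171, adjusted p = 0.343).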
